A study of Homo sapiens with 4 samples.

Results

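The genes SNHG1, SNHG5, SNHG6, SNHG7, SNHG8, SNHG12, SNHG15 and SNHG16 are long noncoding RNA (lncRNA) genes named as small nucleolar RNA host genes. They were found by name: every row of the lncRNA table whose name before the isoform number was one of these 8 genes was taken, which gave 163 isoforms of 104786 in all, or 8 genes of 46902. The rule itself used names alone, but the 8 names, of 22 genes with an SNHG name, were chosen with earlier results of these data known. The samples were MDA-MB-231-P3, a highly metastatic subline made by 3 rounds of tail vein injection into mice, with recovery of the cells that grew in the lung and expansion in culture, and its parent MDA-MB-231, a line of human triple-negative breast cancer cells. Each line had 2 libraries from the mRNA fraction of cultured adherent cells, 4 in all, sequenced as 150-base paired reads by a strand-specific protocol. The subline is a single selected line, and the labels do not say whether its libraries, or those of the parent, came from separate cultures, so p-values measure the spread among 4 libraries and nothing wider, and that spread may be technical.

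A snoRNA host gene carries small nucleolar RNAs (snoRNAs) in its introns. When the transcript is spliced, the intron is trimmed to the snoRNA and the joined exons are left as a lncRNA. The snoRNAs guide chemical changes on ribosomal and other RNAs: C/D box snoRNAs (symbols that begin with SNORD) guide methylation of the ribose, and H/ACA box snoRNAs (symbols that begin with SNORA) guide pseudouridylation. Many such host RNAs begin with a tract of pyrimidines, the 5′ terminal oligopyrimidine tract, which they share with ribosomal protein genes and which couples their translation and turnover to cell growth signals. The values reported here are of the host lncRNA and not of the snoRNAs.

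All values are FPKM, estimates of sequenced fragments scaled by transcript length and library size, as the authors deposited them for each isoform. The lowest listed values are too small to be counts of fragments. How fragments that fit several isoforms were assigned is not stated in the sources used here. Its part in the isoform shares and leading isoforms was not tested. The level of a gene is the sum of its isoforms. The summed FPKM of all listed isoforms was 351135 and 372689 for MDA-MB-231-P3, against 460282 and 500086 for MDA-MB-231, and read depth was unknown. The 8 genes together held 0.696% and 0.679% of that sum in MDA-MB-231-P3, against 0.928% and 0.685% in MDA-MB-231. Of the 2 lncRNAs of luminal breast cells that were listed, DSCAM-AS1 was listed at or near 0 in all 4 libraries and GATA3-AS1 did not exceed 0.0204 FPKM. The lncRNAs of lymphocytes, 3 of 3 listed, summed to 2.18 and 1.96 FPKM in MDA-MB-231-P3 and to 1.45 and 2.58 FPKM in MDA-MB-231. Of these, PRKCQ-AS1 had 2.04 and 1.80 FPKM in MDA-MB-231-P3 and 1.19 and 2.58 FPKM in MDA-MB-231. The lists for lung epithelium and for mesenchyme, with 1 and 2 of 3 names listed, summed to at most 0.577 and 0.762 FPKM in any library. Their part in the results was not tested.

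Setting the subline against its parent asks how lncRNA levels differ after selection for growth in the lung. As deposited, each of the 8 hosts had a lower summed level in both MDA-MB-231-P3 libraries than in either MDA-MB-231 library, none passed the test, and SNHG5 turned to the higher side under 3 other scalings of the libraries. Such a separation was found for 21.4% of the 6444 genes tested, those with a mean of at least 0.5 FPKM over the 4 libraries. The hosts had means of 53.9 to 1046 FPKM, and the share among genes of like level was not worked out. The call threshold, an adjusted p under 0.05 from limma, was passed by 0.0621% of the 6444 genes, 4 in number (0.031% lower in the subline), and by 0 of the 8 hosts. An unadjusted p under 0.05 was reached by 4 hosts, SNHG1, SNHG7, SNHG8 and SNHG15, and by 15.2% of all genes. All 4 were lower, against 5.68% of genes lower and 9.5% higher at that p. The median log2 difference of the 8 hosts was -0.70 on the log2(FPKM + 0.5) scale, against 0.09 over all tested genes. In bulk RNA, fewer cells with a transcript and less of it per cell cannot be told apart.

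**Figure D1:**
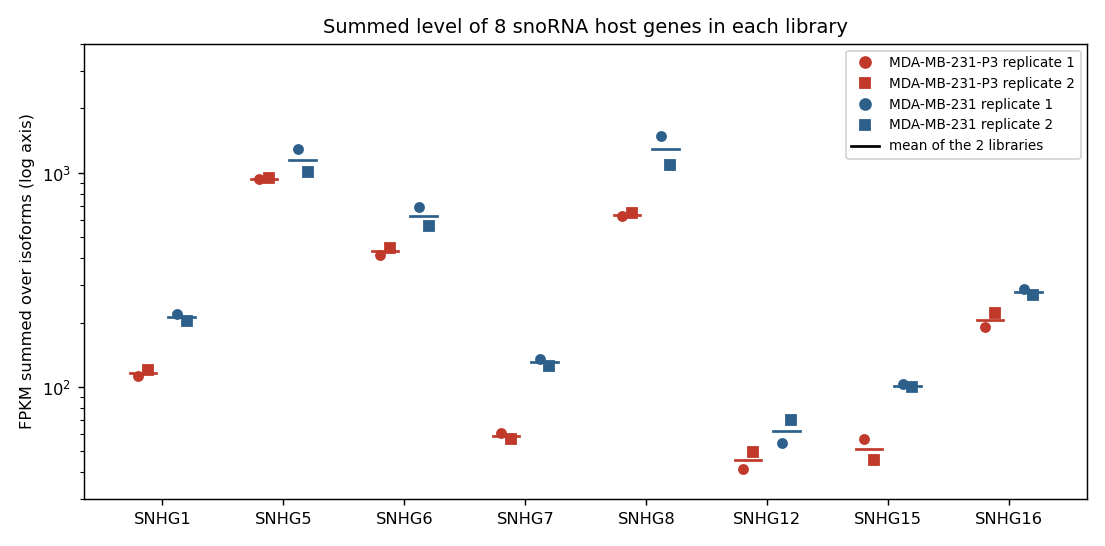
Summed FPKM of the 8 snoRNA host genes on a log axis, with red points for the 2 MDA-MB-231-P3 libraries and blue points for the 2 MDA-MB-231 libraries; circles are replicate 1, squares replicate 2 and lines the mean of the line. For each gene both red points lie below both blue points, most widely for SNHG7 (61.2 and 57.3 FPKM in MDA-MB-231-P3 against 135 and 126 FPKM in MDA-MB-231); these are values as deposited, and SNHG5 turns to the higher side under 3 other scalings.

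The hosts are described by snoRNA kind, beginning with the hosts of H/ACA snoRNAs alone, by the RefSeq annotation. SNHG7 (chromosome 9, 139615818 to 139622636, minus strand, hg19) carries SNORA17A and SNORA17B. It had 61.2 and 57.3 FPKM in the MDA-MB-231-P3 libraries, against 135 and 126 FPKM in the MDA-MB-231 libraries. The libraries of a line differed by at most 1.07-fold, while the mean of the subline was 54.4% lower (log2 difference -1.13, SE 0.25, limma adjusted p = 0.268). SNHG8 (chromosome 4, 119199858 to 119206471, plus strand, hg19), which carries SNORA24, had 629 and 648 FPKM in MDA-MB-231-P3 and 1487 and 1088 FPKM in MDA-MB-231. Its subline libraries were close to each other and its parental libraries were 1.37-fold apart, and the log2 difference was -0.99 (SE 0.30, limma adjusted p = 0.29). SNHG15 (chromosome 7, 45022618 to 45026560, minus strand, hg19), which carries SNORA9, had 57.2 and 45.7 FPKM in MDA-MB-231-P3 and 103 and 99.8 FPKM in MDA-MB-231. Here the wider gap, 1.25-fold, was inside the subline, and the log2 difference was -0.98 (SE 0.27, limma adjusted p = 0.272).

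The next hosts carry C/D box snoRNAs. SNHG1 (chromosome 11, 62619450 to 62623425, minus strand, hg19) carries the most snoRNAs of the 8, 9 RefSeq entries that include SNORD22 and the run from SNORD25 to SNORD31. Its level was 113 and 120 FPKM in MDA-MB-231-P3, against 220 and 202 FPKM in MDA-MB-231 (log2 difference -0.85, SE 0.25, limma adjusted p = 0.284). SNHG6, the host of SNORD87 on chromosome 8, had 416 and 446 FPKM in MDA-MB-231-P3 and 692 and 564 FPKM in MDA-MB-231 (log2 difference -0.54, SE 0.28, limma adjusted p = 0.429). SNHG16 (chromosome 17, 74553809 to 74667067, plus strand, hg19), the host of SNORD1A, SNORD1B and SNORD1C, had 191 and 221 FPKM in MDA-MB-231-P3 and 287 and 268 FPKM in MDA-MB-231 (log2 difference -0.43, SE 0.26, limma adjusted p = 0.489). As deposited the groups did not overlap in either gene, and under quantile normalization and both equal-total scalings they did. SNHG5 (chromosome 6, 86360209 to 86388650, minus strand, hg19), the host of SNORD50A and SNORD50B, differed least as deposited: 934 and 945 FPKM in MDA-MB-231-P3 against 1294 and 1010 FPKM in MDA-MB-231 (log2 difference -0.28, SE 0.29, limma adjusted p = 0.649). MDA-MB-231 replicate 2 lay only just above the subline libraries of SNHG5.

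SNHG12 (chromosome 1, 28905050 to 28909644, minus strand, hg19) hosts both kinds, SNORD99 with SNORA16A, SNORA44 and SNORA61, and had the lowest mean over the 4 libraries. It had 41.3 and 49.5 FPKM in MDA-MB-231-P3, against 54.8 and 70.2 FPKM in MDA-MB-231 (log2 difference -0.45, SE 0.28, limma adjusted p = 0.502). The spread inside each line, 1.20-fold and 1.28-fold, was wider than the gap between the nearest libraries of the lines, 49.5 FPKM in MDA-MB-231-P3 and 54.8 FPKM in MDA-MB-231. Reads from the opposite strand can add to 5 of these genes where counting does not use the strand, which the sources used here do not state: SNHG6 overlaps MCMDC2, SNHG7 overlaps DIPK1B, SNHG8 overlaps PRSS12, SNHG12 overlaps TRNAU1AP and SNHG16 overlaps ST6GALNAC1 and ST6GALNAC2.

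The size of these differences depended on how the libraries were scaled. With every library set to the same total FPKM, the median of all tested genes moved to 0.38, and without the 14 most abundant isoforms in that total it moved to 0.30, while quantile normalization gave -0.03. SNHG5 was lower in MDA-MB-231-P3 as deposited but turned to 0.12, 0.01 and 0.17 in these 3 settings. SNHG1, SNHG7, SNHG8 and SNHG15 stayed lower in both subline libraries under all 3 settings, with log2 differences of -0.72, -0.96, -0.52 and -0.82 after quantile normalization. SNHG6 came to -0.05, -0.13 and -0.24 with quantile normalization, equal totals and equal totals without the most abundant isoforms. In the same order SNHG16 came to -0.16, -0.02 and -0.13, and SNHG12 to -0.27, -0.05 and -0.16. Of these 3 hosts in these 3 settings, the groups stayed apart for SNHG12 in the last setting and overlapped otherwise. In all, 4 of the 8 hosts kept both subline libraries below both parental libraries with quantile normalization, where 26.6% of all genes did. With equal totals it was again 4, where 11.5% of genes did, and with equal totals without the most abundant isoforms it was 5, where 13.5% did. Relative to the median of all genes, the median of the hosts was -0.79 as deposited and -0.37 with quantile normalization. It was -0.67 with equal totals and -0.70 with equal totals without the most abundant isoforms.

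**Figure D2:**
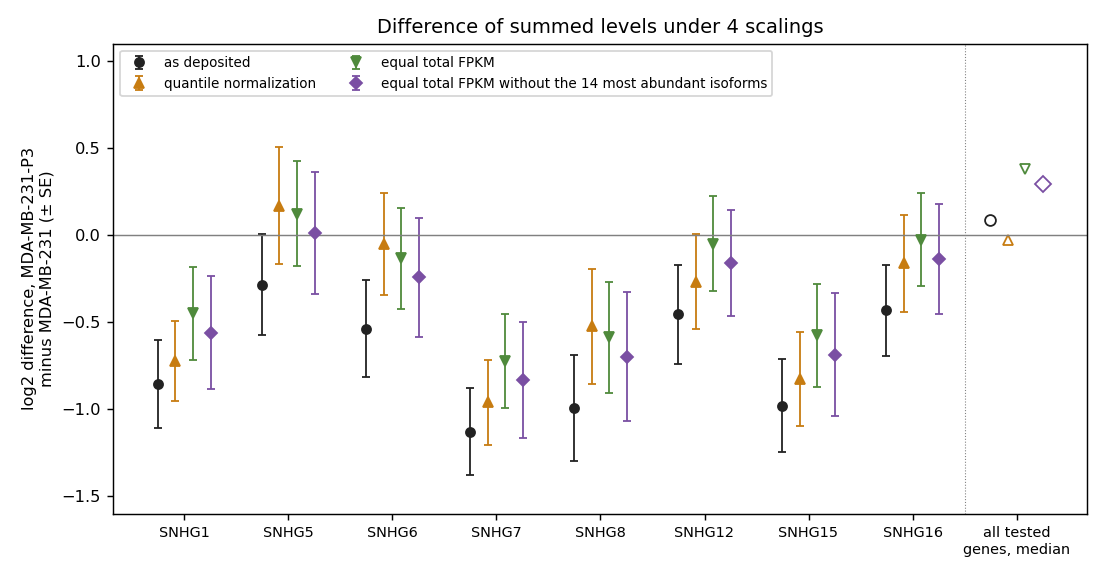
Log2 difference of the summed level, MDA-MB-231-P3 minus MDA-MB-231, with its standard error, for the 8 hosts as deposited (black), with quantile normalization (orange), with equal total FPKM (green) and with equal totals without the 14 most abundant isoforms (purple); open symbols at the right are the median of all 6444 tested genes. SNHG7 stays at -0.72 or below in every setting, while SNHG5 lies above 0 in the 3 settings other than as deposited.

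The starts of these genes are shown because many snoRNA hosts are known to begin with a pyrimidine tract. RefSeq promoter sequence (GRCh38.p14) was at hand for SNHG1, SNHG5, SNHG7, SNHG8, SNHG12 and SNHG16, 6 of the 8 genes. SNHG6 and SNHG15 are named only. Each sequence gives 80 bases of the gene's own strand, 50 before the annotated start and 30 from it. Capitals mark the longest unbroken run of C and T that touches the 5 bases on either side of the start.
SNHG1: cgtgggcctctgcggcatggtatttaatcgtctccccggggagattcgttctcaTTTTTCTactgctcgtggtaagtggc
SNHG5: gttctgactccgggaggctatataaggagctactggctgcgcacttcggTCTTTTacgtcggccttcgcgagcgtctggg
SNHG7: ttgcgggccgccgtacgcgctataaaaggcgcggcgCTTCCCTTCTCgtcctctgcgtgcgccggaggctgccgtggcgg
SNHG8: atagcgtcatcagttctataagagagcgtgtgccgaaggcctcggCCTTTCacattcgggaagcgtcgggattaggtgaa
SNHG12: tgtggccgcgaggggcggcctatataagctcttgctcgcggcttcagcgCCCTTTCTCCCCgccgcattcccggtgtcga
SNHG16: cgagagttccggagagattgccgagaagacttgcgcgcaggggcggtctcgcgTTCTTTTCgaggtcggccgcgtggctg

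These windows lie at chr11:62855856-62855935 (minus strand) for SNHG1, chr6:85678704-85678783 (minus) for SNHG5 and chr9:136728155-136728234 (minus) for SNHG7. For SNHG8, SNHG12 and SNHG16 they lie at chr4:118278712-118278791 (plus), chr1:28581844-28581923 (minus) and chr17:76557714-76557793 (plus). All 6 held a run of at least 6 pyrimidines that touches these bases around the start, as did 22.2% of the 35116 promoters in the table. That length is the shortest run among the 6, so the count of 6 follows from it. Runs of at least 7, 8 and 9 were held by 4, 3 and 2 of the 6, against 15.4%, 11.2% and 8.11% of promoters. Counting the start as base 1, the run of SNHG1 begins at base 5 and that of SNHG16 at base 4, both after the start. The run of SNHG7 begins at base -14 and ends before the start. The letters TATAA occurred on the gene's strand between 45 and 16 bases before the start in 4 of the 6 (SNHG5, SNHG7, SNHG8 and SNHG12), against 4.1% of all promoters. Anywhere in the 300 bases of the table's window, on either strand, 5 of the 6 and 20.4% of all promoters held TATAA. A pyrimidine run can share the first base of TATAA. In the 4 windows that hold this motif the capitals share no base with it.

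Each gene was listed as 6 to 37 isoforms, and its output was split among them in very different ways. SNHG5, SNHG8, SNHG7 and SNHG16 had 1 leading isoform that was the same in all 4 libraries. SNHG1, SNHG12 and SNHG15 spread their output over several. SNHG6 was held mainly by SNHG6:16 and SNHG6:19, with mean shares of 41.8% and 43.7% in MDA-MB-231-P3 and 50.3% and 46.3% in MDA-MB-231. The leading isoform of SNHG1, SNHG6, SNHG12 and SNHG15 was not the same in all libraries. The isoform numbers are those of the table, with the exons behind each number not given in the sources used here. Of the 163 isoforms, 161 were listed above 0 in all 4 libraries and 94 reached the mean of 0.5 FPKM needed for testing. Listed above 0 does not mean detected, as with SNHG1:52 at 1.35e-29 FPKM in MDA-MB-231 replicate 2.

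At the level of isoforms, limma called 0 of 8432 tested isoforms, 0% of all, and 0 of the 94 tested isoforms of these hosts. An unadjusted p under 0.05 was reached by 24 of the 94, against 13.3% of all tested isoforms. Of the 24, 20 were lower and 4 higher in MDA-MB-231-P3, against 5.46% lower and 7.87% higher of all. The log2 difference was negative for 69 of the 94, against 46% of all tested isoforms. The subline libraries were both below the parental ones for 41 of the 94 and both above for 9, against 20.6% and 27.2% of all tested isoforms. By gene, 8 of 10 tested isoforms of SNHG7 and 9 of 12 of SNHG15 were below in this way, and 0 of either gene above. In SNHG5 the count was 2 below and 3 above of 19. Of the 24, 7 were of SNHG7, 5 of SNHG12 and 5 of SNHG15. Isoforms of a gene add up to its level, so these counts partly repeat the lower sums and are not of independent units. All are of values as deposited.

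To ask whether the split among isoforms differs apart from the level, each isoform was set against the summed FPKM of the gene's other isoforms. This usage fit called 0 of 3675 isoforms, 0% of all, and 0 of the 94. The subline libraries were both above the parental ones in usage for 31 of the 94 and below for 12, against 21.3% and 17.7% of all isoforms in the fit. The smallest adjusted p among the 94 was 0.558, and an unadjusted p under 0.05 was reached by 5 of the 94, against 8% of all. These were 1 lower and 4 higher, against 3.76% and 4.24% of all. The usage difference was negative for 36 of the 94, against 48.7% of all. Usage values of the isoforms of a gene depend on each other, so these counts are not of independent units. Nor are they fully apart from the level, because the 0.5 added weighs more on low isoforms where the gene is lower. SNHG7:13 was above in usage, by 0.13. Its shares were lower, 1.56% and 1.37% in MDA-MB-231-P3 against 1.71% and 1.70% in MDA-MB-231. How much of the counts this makes up was not tested.

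In SNHG6 an isoform was higher in the subline while the sum of the gene was lower. SNHG6:3 had 57.4 and 27.5 FPKM in MDA-MB-231-P3, against 4.62 and 2.05 FPKM in MDA-MB-231. Both subline values were higher, by 12.7-fold in the mean, while the subline values themselves were far apart. On the log2(FPKM + 0.5) scale the difference was 3.48 (SE 0.57, limma adjusted p = 0.247), the smallest adjusted p among the isoforms of these hosts. Its share of SNHG6 was 13.8% and 6.16% in MDA-MB-231-P3 and 0.668% and 0.363% in MDA-MB-231, and the usage difference was 4.16 on the log2 scale (SE 0.67, limma adjusted p = 0.558).

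The leading SNHG6 isoforms were lower, as the sum was. SNHG6:16 had 161 and 200 FPKM in MDA-MB-231-P3, against 328 and 300 FPKM in MDA-MB-231. SNHG6:19 had 181 and 196 FPKM in MDA-MB-231-P3, against 344 and 242 FPKM in MDA-MB-231. SNHG6:19 was first in replicate 1 of each line and SNHG6:16 in replicate 2 of each. Without SNHG6:3 the gene summed to 388 ± 42.5 FPKM in MDA-MB-231-P3 and 625 ± 88.4 FPKM in MDA-MB-231 (SD, n = 2 each), 37.9% lower in the subline where the full sum was 31.4% lower.

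SNHG8 rested on SNHG8:17, which took 73.7% and 69.7% of the gene in MDA-MB-231-P3 and 82.9% and 81.2% in MDA-MB-231. Its level was 463 and 452 FPKM in the subline, against 1233 and 883 FPKM in the parent. This isoform made up 92.5% of the difference in the mean summed level. The second isoform, SNHG8:3, had 80.7 and 89.3 FPKM in MDA-MB-231-P3 and 156 and 99.9 FPKM in MDA-MB-231, and its share was 12.8% and 13.8% in MDA-MB-231-P3 against 10.5% and 9.19% in MDA-MB-231. The share of SNHG8:17 was lower by 10.3 percentage points, beyond the spread within the lines, with a usage difference of -0.85 (limma adjusted p = 0.647). SNHG8:18 was listed at 23.3 FPKM in MDA-MB-231-P3 replicate 2 and at or under 0.129 FPKM in the other 3 libraries, so it differed between libraries of the same line.

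In SNHG7 and SNHG16 the leading isoform kept a like share in both lines. SNHG7:5 held 68.8% and 58.8% of SNHG7 in MDA-MB-231-P3 and 64.8% and 67.6% in MDA-MB-231, so the ranges overlapped. Its level was 42.1 and 33.7 FPKM in the subline, against 87.3 and 84.9 FPKM in the parent, and all 10 tested isoforms of the gene had negative log2 differences. The isoform of smallest usage p in SNHG7, SNHG7:8, had 1.41 and 7.49 FPKM in MDA-MB-231-P3 and 10.8 and 1.503 FPKM in MDA-MB-231, and the groups overlapped.

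In SNHG16 the leading pair were SNHG16:36 and SNHG16:39. SNHG16:36 had 114 and 129 FPKM in MDA-MB-231-P3, against 162 and 161 FPKM in MDA-MB-231, and held 59.4% and 58.4% of the gene in the subline against 56.4% and 60.2% in the parent. SNHG16:39 had 49.8 and 63.9 FPKM in the subline, against 90.4 and 79.5 FPKM in the parent. The low isoform SNHG16:30 was higher in the subline, listed at 1.46 and 3.38 FPKM in MDA-MB-231-P3 against 0.00191 FPKM and near 0 in MDA-MB-231 (limma adjusted p = 0.28). Its share of the gene was 0.764% and 1.53% in the subline libraries.

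SNHG5 was the most concentrated of the hosts. SNHG5:43 held 90.5% and 87.6% of it in MDA-MB-231-P3 and 91.2% and 89.4% in MDA-MB-231, with 845 and 828 FPKM in the subline against 1180 and 903 FPKM in the parent. The next most abundant isoform, SNHG5:41, had a mean of 25.7 FPKM over the 4 libraries. The isoform of smallest usage p, SNHG5:22, had 0.998 and 1.51 FPKM in MDA-MB-231-P3, against 0.554 FPKM and a value near 0 in MDA-MB-231.

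SNHG1 was split among several isoforms. SNHG1:64 had 12.2 and 27.1 FPKM in MDA-MB-231-P3, against 70.2 and 56.9 FPKM in MDA-MB-231, and this isoform made up 46.3% of the difference in the mean summed level of the gene (log2 difference -1.76, limma adjusted p = 0.329). It took 10.8% and 22.6% of SNHG1 in MDA-MB-231-P3 and 31.9% and 28.1% in MDA-MB-231, and it led in every library but MDA-MB-231-P3 replicate 1, where SNHG1:35 led. SNHG1:58 had 13.6 and 16.5 FPKM in the subline, against 28.5 and 46.3 FPKM in the parent. SNHG1:35 had 18.2 and 12.6 FPKM in MDA-MB-231-P3 and 18.2 and 13.6 FPKM in MDA-MB-231, with overlapping groups. Its share of the gene was 16.1% and 10.5% in the subline against 8.25% and 6.72% in the parent, and did not overlap. SNHG1:56 had 13.8 and 21.9 FPKM in the subline and 18.9 and 28.3 FPKM in the parent, with overlapping groups. The effective number of isoforms, the inverse of the summed squared shares, was 10.4 and 7.39 in MDA-MB-231-P3 and 6.57 and 6.06 in MDA-MB-231. SNHG1:51, the isoform of smallest usage p, had 0.692 and 1.55 FPKM in MDA-MB-231-P3, against 0.161 FPKM and a value near 0 in MDA-MB-231.

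In SNHG15 the leading isoform was not the same in the lines. SNHG15:8 had 14.4 and 9.33 FPKM in MDA-MB-231-P3, against 32.4 and 25.2 FPKM in MDA-MB-231, and led in both parental libraries. SNHG15:27 had 15.0 and 13.8 FPKM in MDA-MB-231-P3, against 20.8 and 20.0 FPKM in MDA-MB-231, and led in both subline libraries. SNHG15:27 held 26.2% and 30.1% of the gene in the subline and 20.2% and 20.0% in the parent, with no overlap. The shares of SNHG15:8, 25.3% and 20.4% in the subline against 31.6% and 25.2% in the parent, overlapped, and in MDA-MB-231-P3 replicate 1 it was close behind SNHG15:27. SNHG15:24 had 10.99 and 4.41 FPKM in the subline and 16.7 and 15.6 FPKM in the parent. SNHG15:5 had 2.08 and 0.589 FPKM in MDA-MB-231-P3, against 0.967 and 0.705 FPKM in MDA-MB-231.

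In SNHG12 the isoform of smallest usage p, SNHG12:28, was not a leading one. It had 1.93 and 2.36 FPKM in MDA-MB-231-P3, against 7.25 and 9.38 FPKM in MDA-MB-231, 3.87-fold lower in the mean of the subline. Its share was 4.68% and 4.78% of the gene in MDA-MB-231-P3 and 13.2% and 13.4% in MDA-MB-231, close within each line (log2 difference -1.73, SE 0.31, limma adjusted p = 0.258; usage difference -1.41, limma adjusted p = 0.564). The leading isoforms SNHG12:18 and SNHG12:23 differed less. SNHG12:18 had 11.8 and 12.04 FPKM in the subline and 12.6 and 17.8 FPKM in the parent. SNHG12:23 had 9.43 and 14.2 FPKM in the subline and 12.4 and 10.2 FPKM in the parent, with overlapping groups. SNHG12:23 led in MDA-MB-231-P3 replicate 2, and SNHG12:18 in the other 3 libraries. SNHG12:4 had 5.90 and 8.20 FPKM in MDA-MB-231-P3 and 3.77 and 10.7 FPKM in MDA-MB-231, and SNHG12:21 had 6.65 and 4.66 FPKM in MDA-MB-231-P3 and 3.84 and 4.16 FPKM in MDA-MB-231.

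**Figure D3:**
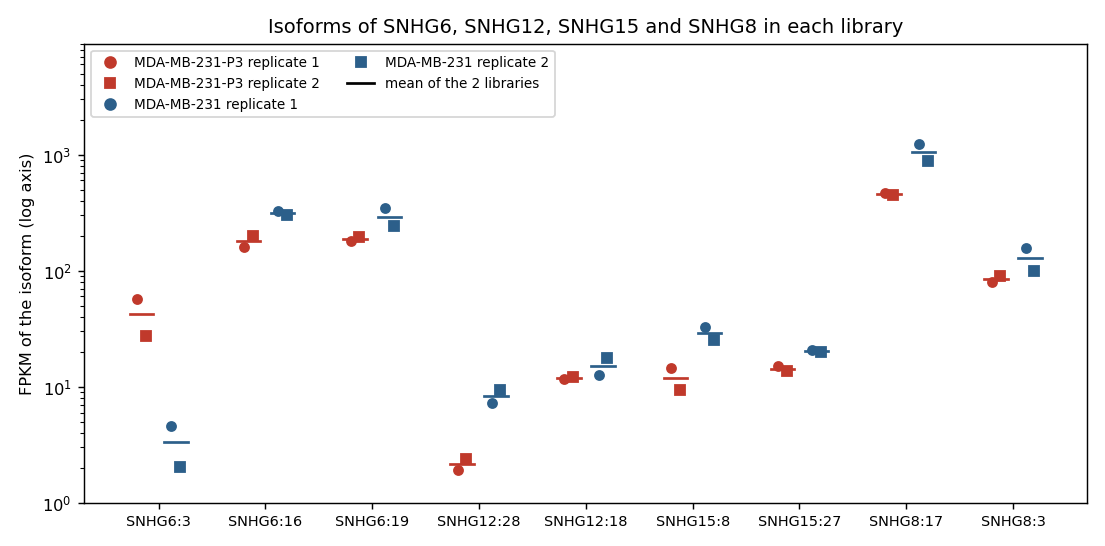
FPKM of 9 isoforms of SNHG6, SNHG12, SNHG15 and SNHG8 on a log axis, with red points for MDA-MB-231-P3 and blue points for MDA-MB-231; circles are replicate 1, squares replicate 2 and lines the mean of the line. SNHG6:3 is the isoform whose red points, 57.4 and 27.5 FPKM, lie above the blue points, 4.62 and 2.05 FPKM, and in the other 8 both red points lie below both blue points.

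The difference in makeup of a whole gene was measured as the distance in isoform shares between 2 libraries, the part of the gene's output that would have to move between isoforms to make them equal. For SNHG8 the 4 distances between the lines were 7.63 to 13.3 percentage points, against 6.63 within MDA-MB-231-P3 and 3.36 within MDA-MB-231. For SNHG6 they were 8.37 to 15.0, against 7.65 within MDA-MB-231-P3 and 7.20 within MDA-MB-231. For SNHG12 they were 27.5 to 29.8, against 13.99 within MDA-MB-231-P3 and 24.3 within MDA-MB-231. In these 3 genes of the 8 every distance between the lines was larger than both distances within them, as in 12% of the 1074 genes with at least 2 isoforms of mean FPKM at least 0.5 and 15.2% of the 79 of them with a summed mean of at least 40 FPKM, a level that all 8 hosts reached. For SNHG5 and SNHG7 the mean distance between the lines, 3.66 and 9.46 percentage points, was below the mean within them.

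SNHG16 had a mean distance of 4.91 percentage points between the lines, close to the 4.46 and 4.27 within MDA-MB-231-P3 and MDA-MB-231. SNHG1 had 29.7 between the lines, against 29.9 within MDA-MB-231-P3 and 23.8 within MDA-MB-231, and both values lay inside the range between the lines. In SNHG15 the mean distance between the lines was 17.8, against 17.4 within MDA-MB-231-P3 and 7.64 within MDA-MB-231. The mean distance between the lines exceeded the mean within them in 6 of the 8 hosts and in 48.2% of the 1074 genes. Among the 79 genes of at least 40 FPKM it did so in 46.8%. With 2 libraries against 2, a two-sided exact permutation test cannot give a p under 0.333, so no distance was tested.

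**Figure D4:**
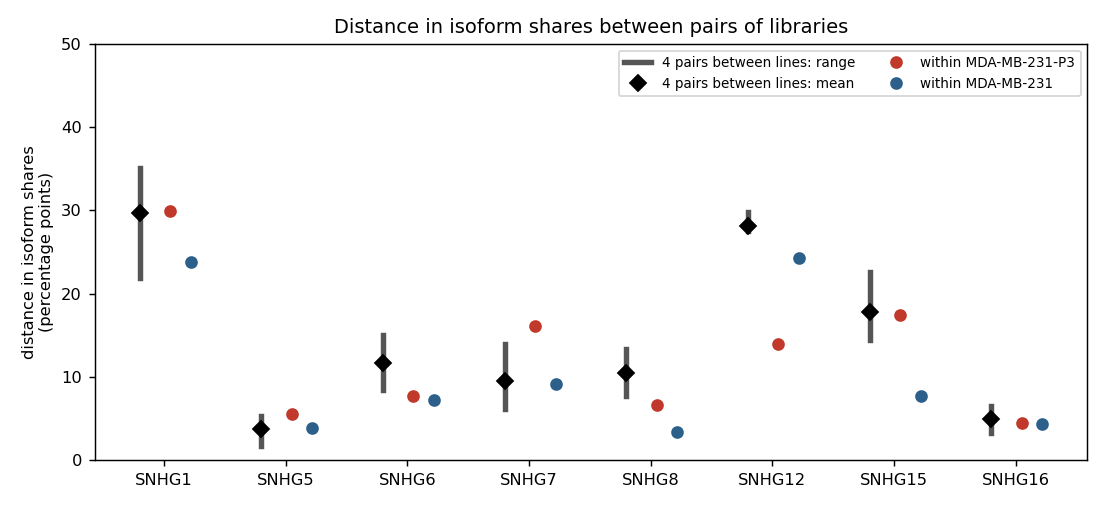
Distance in isoform shares between pairs of libraries, in percentage points, for each host: black diamonds and grey bars give the mean and range of the 4 pairs between the lines, red points the pair within MDA-MB-231-P3 and blue points the pair within MDA-MB-231. For SNHG6, SNHG8 and SNHG12 the whole grey bar lies above both points, and for SNHG1 the bar, 21.8 to 35.1, covers them.

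Among other snoRNA host lncRNAs, 16 of the 22 names in the list were tested and 0 were called in either direction, against 0.0621% of all genes. Of these, 13 had a negative log2 difference, against 45.3% of all genes, and the median was -0.52, against 0.09 over all genes. As deposited, the subline libraries were both below the parental ones in 11 of the 16, against 21.4% of all genes. With quantile normalization this held in 10, with equal totals in 6 and with equal totals without the most abundant isoforms in 7. The shares of all genes were then 26.6%, 11.5% and 13.5%. As deposited, the subline libraries were both above in 1, GAS5, against 28.8% of all genes. In the other scalings, in the same order, they were above in 1, 2 and 2. Of the 6444 tested genes, 1537, 2734 and 2400 were then above. GAS5 had 1132 and 1207 FPKM in MDA-MB-231-P3 and 1073 and 932 FPKM in MDA-MB-231 (log2 difference 0.22, limma adjusted p = 0.699). The most abundant were SNHG3, with 40522 and 31704 FPKM in MDA-MB-231-P3 and 24621 and 45509 FPKM in MDA-MB-231, and SNHG10, with 1279 and 2699 FPKM in MDA-MB-231-P3 and 1790 and 3466 FPKM in MDA-MB-231. Both overlapped between the lines (log2 differences 0.10 and -0.42, limma adjusted p = 0.926 and 0.719).

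Apart from the 8 hosts, the genes whose profile over the 4 libraries was nearest to the hosts' mean profile were PCBP1-AS1, lnc-RHBDD1-6 and lnc-SEC11A-6. They came from 605 other genes with a mean of at least 10 FPKM, other snoRNA hosts included. Nearness was the Euclidean distance of log2(FPKM + 0.5) centred over the 4 libraries, 0.069, 0.075 and 0.13. PCBP1-AS1 had 14.7 and 16.03 FPKM in MDA-MB-231-P3 and 26.5 and 23.4 FPKM in MDA-MB-231. By the same measure the hosts themselves lay at 0.15 (SNHG1) to 0.46 (SNHG12) from their mean profile. The 3 genes were picked as the nearest of 605 and the hosts were not picked by distance, so these distances cannot be compared. Likeness over 4 libraries is a description of these profiles.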

How the data were processed

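RNA of 2 libraries of MDA-MB-231-P3 and 2 of MDA-MB-231 was sequenced. The authors' alignment to hg19 used HISAT2, and the deposited values are FPKM, per the labels' protocols; StringTie is also named, per the submitters' processing notes. Tool versions, the lncRNA annotation and the read depth were not given in the sources used here, so no counting interval is given and a value at or near 0 is called listed at that value. The values of the 4 per-sample files equalled those of the deposited FPKM table.

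Isoforms were summed per gene. Features with a mean of at least 0.5 FPKM were tested on log2(FPKM + 0.5), a scale that understates changes of low values, with limma 3.58.1 in R 4.3.3 (intensity trend, two-sided, no block, Benjamini-Hochberg over all features, threshold 0.05). Usage was log2 of (isoform + 0.5) over (other isoforms of the gene + 0.5), in genes with at least 2 tested isoforms. The fits were also run on simulated independent normal values with planted changes. That simulation leaves out the dependence among isoforms of a gene, and no result here rests on it. Alternatives were pseudocounts of 0.1 and 1, other filters and scalings, no trend, the replicate block, calls of at least 1 on the log2 scale, the leading isoform in place of the sum, other sets of isoforms for the shares, and leaving out each library.

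The members and lists were chosen with earlier results of these data known. Isoforms were named where they led in a library, held at least 10% of the gene in either line or had the gene's smallest usage p. Others were named after their values were seen: SNHG5:41, SNHG8:18 and GAS5. Of the other snoRNA hosts, the pair of highest mean FPKM was named, and of genes outside the list the 3 with at least 10 FPKM and the nearest profile. Positions are from GENCODE release 44 lifted to GRCh37. Python 3.11.15 and matplotlib 3.10.9 were also used.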

Additional observations from a re-analysis of the deposited data

How the results depend on the processing

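In 120 repeats of the 8 summed differences, over 15 settings, 0 were called and the smallest limma adjusted p was 0.233. The direction turned only for SNHG5, to 0.17 with quantile normalization, 0.12 with equal total FPKM and 0.014 with equal totals without the most abundant isoforms. The median of the 8 hosts was -0.39, -0.29 and -0.40 in these settings and -0.78 with centring, against -0.70. The median of the other snoRNA hosts was -0.12 and -0.23 with equal totals, without and with that exclusion, against -0.52. The cause of these shifts was not tested. Over the whole table limma called 4 genes, 2 with quantile normalization and 0 with a pseudocount of 1, without the filter or with no intensity trend, where 983, 2500 and 947 genes had an unadjusted p under 0.05. It called 6 isoforms with a minimum of 1 FPKM, where fewer were tested, against 0. The isoform SNHG7:8, not called, turned to 0.051 with equal totals.

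Leaving out single libraries gave 0 called genes with limma each time, with 564 to 906 at an unadjusted p under 0.05. The remaining library of that line was assumed to vary like the other line, with fewer degrees of freedom. The median of the 8 hosts was then -0.80 to -0.65, that of the other hosts -0.71 to -0.42, and single hosts kept their direction, from -1.22 to -0.77 for SNHG8 and from -0.46 to -0.10 for SNHG5. SNHG7:8 ranged from -1.53 to 0.97 in level and from -0.36 to 2.14 in usage, and SNHG15:5 from -0.29 to 0.96 in level. SNHG6:3 stayed at 2.95 to 4.001 and SNHG12:28 at -1.90 to -1.55. The share of SNHG8:17 differed by -12.3 to -8.37 percentage points and that of SNHG1:64 by -19.2 to -7.37.

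Same-numbered libraries deviated together by a correlation of 0.078 across genes and 0.047 across isoforms, and no label says that a number marks a shared batch. With the replicate number as a block, 0 genes, 0 isoforms and 0 isoforms by usage were called by limma, with 887 genes at an unadjusted p under 0.05, and no host changed its call.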
